A study of Macaca fascicularis with 6 samples.

Results

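The AP-1 and early growth response genes are transcription factor genes, several of which are among the first that a cell switches on when it is stimulated. Of the 10 genes named for the set (*FOS*, *FOSB*, *FOSL1*, *FOSL2*, *JUN*, *JUNB*, *JUND*, *EGR1*, *ATF3* and *IER2*), 6 were found by symbol in both single-cell matrices, which list 13950 and 14020 genes. These 6 were *FOS*, *FOSB*, *FOSL1*, *FOSL2*, *JUN* and *EGR1*. *JUNB*, *JUND*, *ATF3* and *IER2* were not analysed here. The rule names the genes by symbol and applies no measured value, but it was written with earlier results of these data known.

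AP-1 is a dimer of basic leucine zipper proteins. FOS-family proteins (FOS, FOSB, FOSL1 and FOSL2) cannot pair with themselves and bind DNA as partners of JUN-family proteins, and the dimer activates or represses genes of growth, matrix turnover and inflammation. *FOS*, *FOSB*, *JUN* and *EGR1* are immediate-early genes, whose transcripts appear and decay quickly after growth factors, mechanical load, wounding or the dissociation of a tissue, whereas *FOSL1* and *FOSL2* usually respond later and for longer. In cartilage, FOS and JUN proteins are known for their part in chondrocyte maturation and in the induction of matrix-degrading enzymes. EGR1 is a zinc finger factor induced through serum response factor and the MAP kinase pathway.

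Single cells were profiled by TAS-Seq, a bead-based method of single-cell RNA sequencing, in 5 conditions of the cynomolgus monkey. cyiPSC were undifferentiated induced pluripotent stem cells of 1 line with an EGFP reporter gene, and pre-transplant cyiPS-Cart were cartilage organoids grown from that line. Post-transplant cyiPS-Cart were organoids recovered 4 months after allogeneic transplantation into chondral defects of the knee of monkeys aged 3 to 4 years. Its label names a wild type genotype (the recipients), where the methods describe cells of the EGFP donor line. cyAC was intact articular cartilage and cyFT the fibrous tissue formed in defects left empty, both from wild type monkeys of 3 to 4 years and also taken 4 months after surgery. cyiPSC and pre-transplant cyiPS-Cart shared a library, cyAC and cyFT shared another, and post-transplant cyiPS-Cart had a library of its own. The methods describe 3 monkeys per group at this time, and 2 sites of each animal put together for sequencing, but not how many of the animals a library holds.

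Every condition was 1 sample, so no test between conditions was run. The 95% intervals below cover counting error only. A first matrix holds 2500 cyiPSC and 3527 pre-transplant cells, and a second holds 320 cells each of cyAC, cyFT and both organoid samples. Of the 320 pre-transplant cells, 300 are also in the first matrix, with the same reads for all 6 genes. Median reads per cell ranged from 27500 in cyFT to 143075 in cyiPSC, and mitochondrial genes took between 1.97% of the reads in post-transplant cyiPS-Cart and 7.72% in cyiPSC. At least 3 chondrocyte markers were read in between 99.4% and 100% of the cells of each organoid or tissue sample and in 10.4% of cyiPSC, of which 86.9% held at least 3 pluripotency markers. In the second matrix, at least 3 fibroblast markers were read in 93.1% of pre-transplant and 98.8% of post-transplant cells, 59.1% of cyAC and 90.6% of cyFT. These counts therefore do not separate cartilage cells from fibrous cells. At least 3 macrophage markers were read in 16 cells of cyFT (5%), in 1 cell of cyAC and in no cell of either organoid sample. Between 0 and 4 cell barcodes were shared by any pair of libraries.

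All tissue samples were minced and digested with the enzyme mixture Liberase at 37 °C. The digestion time is given as 120 to 210 minutes for all of them together, and the enzyme concentration as 0.2 mg/mL for pre-transplant cyiPS-Cart and 0.2 to 0.4 mg/mL for cyAC and post-transplant cyiPS-Cart. Pre-transplant organoids were digested in medium with TGF-β1, GDF5 and BMP2, and cyAC and post-transplant cyiPS-Cart in RPMI-1640. The medium for cyFT is not named separately, and the release of cyiPSC from culture is not described with these steps. The effect of digestion and that of the condition on the genes below therefore cannot be told apart.

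*FOS* encodes the founding member of the FOS family. Its level, the reads of a sample summed over cells and given as counts per 1000000 reads of all genes (CPM), was 31.4 CPM in cyiPSC and 664.6 CPM in pre-transplant cyiPS-Cart of the first matrix. In the second matrix it was 622.6 CPM in pre-transplant cyiPS-Cart, 5742 CPM in post-transplant cyiPS-Cart, 754.1 CPM in cyAC and 1836 CPM in cyFT. Post-transplant cyiPS-Cart was the highest sample and cyiPSC the lowest. The counting intervals of all samples of a matrix were apart, from 612.0 to 633.3 CPM in pre-transplant cyiPS-Cart against 738.6 to 769.9 CPM in cyAC for the nearest pair.

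*FOSB*, a close relative of *FOS*, was nearly absent from cyiPSC, with 47 reads or 0.113 CPM. It stood at 4.94 CPM in pre-transplant cyiPS-Cart of the first matrix and at 4.41 CPM in those of the second. Post-transplant cyiPS-Cart held 78.5 CPM, cyAC 129.9 CPM and cyFT 142.9 CPM of *FOSB*. The monkey tissues were thus the highest for *FOSB*, and their intervals, 123.5 to 136.6 and 135.9 to 150.1 CPM, overlapped.

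*FOSL1*, which encodes FRA-1, had another order. It was at 14.4 CPM in cyiPSC and 78 CPM in pre-transplant cyiPS-Cart of the first matrix. In the second matrix it was at 100.2 CPM in pre-transplant cyiPS-Cart, 11.6 CPM in post-transplant cyiPS-Cart, 150.7 CPM in cyAC and 256.8 CPM in cyFT. Post-transplant cyiPS-Cart, the sample highest in *FOS*, was the lowest of the second matrix in *FOSL1*, with 345 reads in 38 of its 320 cells.

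*FOSL2*, which encodes FRA-2, was low in every sample, between 8.88 CPM in pre-transplant cyiPS-Cart of the first matrix and 28.9 CPM in cyAC. cyFT had 26.3 CPM of *FOSL2*, within the counting error of cyAC, post-transplant cyiPS-Cart had 20.3 CPM, and pre-transplant cyiPS-Cart of the second matrix had 11.04 CPM. In cyiPSC *FOSL2* stood at 11.7 CPM.

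*JUN*, the only JUN-family gene of the set with values, was at 48.5 CPM in cyiPSC and 235.7 CPM in pre-transplant cyiPS-Cart of the first matrix. In the second matrix it was at 242.5 CPM in pre-transplant cyiPS-Cart, 1587 CPM in post-transplant cyiPS-Cart, 247.2 CPM in cyAC and 736.1 CPM in cyFT. Pre-transplant cyiPS-Cart and cyAC differed by less than the counting error for *JUN*, as their intervals of 235.9 to 249.2 and 238.3 to 256.3 CPM overlapped. *EGR1* was at 14.5 CPM in cyiPSC and 26.6 CPM in pre-transplant cyiPS-Cart of the first matrix. In the second matrix it was at 28.1 CPM in pre-transplant cyiPS-Cart, 309.0 CPM in post-transplant cyiPS-Cart, 141.1 CPM in cyAC and 113.6 CPM in cyFT. As for *FOS* and *JUN*, post-transplant cyiPS-Cart was the highest sample for *EGR1*.

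**Figure D1:**
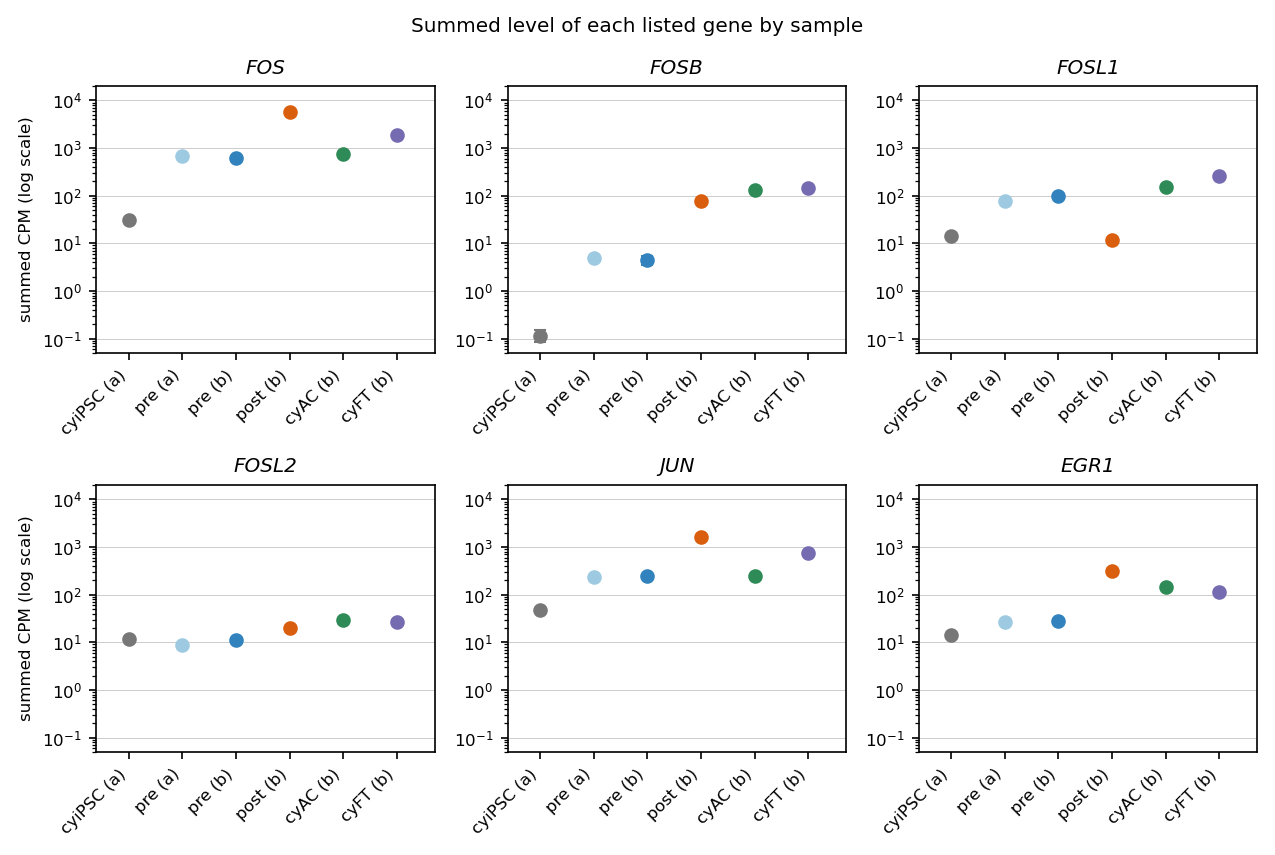
Summed CPM of each listed gene by sample, on a log axis, with 95% exact Poisson intervals mostly smaller than the points; (a) and (b) mark the first and the second matrix, pre and post are pre-transplant and post-transplant cyiPS-Cart, and levels of different genes are not compared. Post-transplant cyiPS-Cart was the highest sample for *FOS* (5742 CPM), *JUN* (1587 CPM) and *EGR1* (309.0 CPM) and, within the second matrix, the lowest for *FOSL1* (11.6 CPM).

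For each comparison, a gene was kept if 1 of the samples had 50 CPM or more of it and if 1 of them had its reads in 25% of cells or more, and the log2 ratio of CPM + 1 was computed. Only sizes are given, beside the share of all kept genes that were as far apart. The comparisons of the second matrix share samples, so their values stand side by side and are not independent.

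The comparison of pre-transplant cyiPS-Cart with cyiPSC asked what differed after chondrogenic differentiation. *FOS* was 21.2-fold higher in pre-transplant cyiPS-Cart (20.8 to 21.6), *FOSL1* 5.43-fold (5.28 to 5.595) and *JUN* 4.86-fold (4.78 to 4.94). These were the 3 members that passed the filter, and all 3 were at least 2-fold higher, where 18.4% of all 4684 kept genes were at least 2-fold higher and 38.5% at least 2-fold lower. All 3 were kept through their level in pre-transplant cyiPS-Cart alone, so their count is no support. With edgeR's TMM factors, which rescale samples by a trimmed mean of the ratios of all genes, the log2 ratios of *FOS*, *FOSL1* and *JUN* were 5.02, 3.00 and 2.92 in place of 4.36, 2.36 and 2.26. Over all 6 listed genes the median log2 ratio was 2.31, beside −0.63 for all kept genes. *FOSB*, *FOSL2* and *EGR1* were too low in both samples to pass, with log2 ratios of 2.42, −0.36 and 0.83. The value of *FOSB* is set by the 1 CPM added to both levels, and was 0.56 with 10 CPM and 4.56 with 0.1 CPM added. With TMM factors *EGR1* was at 1.47, past 2-fold, and *FOSL2* turned to 0.25. The samples shared a library, but cyiPSC were read more than 2-fold deeper per cell.

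Post-transplant and pre-transplant cyiPS-Cart were compared to see what differed after 4 months in the joint. *FOSB* was 17.8-fold higher after transplantation (14.5 to 22.1), *EGR1* 11-fold (10.1 to 12.0), *FOS* 9.22-fold (9.06 to 9.39) and *JUN* 6.55-fold (6.36 to 6.74). *FOSL1* went the other way, with 0.115 times the pre-transplant level (0.103 to 0.129) and a log2 ratio of −3.01. Of the 5 members that passed the filter, 4 were therefore at least 2-fold higher and 1 at least 2-fold lower, beside 8.16% and 22.1% of 3421 kept genes. *FOSB* and *EGR1* were kept through their level after transplantation alone, and *FOSL1* through its level before it. The median log2 ratio was 2.95 over all 6 listed genes and −0.39 over all kept genes. *FOSL2* did not pass and had a log2 ratio of 0.83. The log2 ratio of *FOSB*, taken over a pre-transplant level of 4.41 CPM, was 3.88, and 2.62 with 10 CPM in place of 1 CPM added. Library and condition coincided here, and mitochondrial reads were 5.51% before and 1.97% after transplantation. The 6 fibroblast markers summed to 23526 CPM before and 78545 CPM after transplantation. The part of these differences in the result was not tested. The sum was 51893 CPM in cyFT, the fibrous tissue, so a higher sum does not mean more fibrous cells. *COL3A1* was at 11791.8 CPM before and 34538.5 CPM after transplantation, *COL1A2* at 3861.1 and 25851.5 CPM and *DCN* at 193.3 and 6282.5 CPM. *LUM* was at 651.3 and 1698.3 CPM and *PDGFRA* at 12.96 and 6.23 CPM. *COL1A1* was at 7015.8 and 10168.1 CPM but was read in 24.06% and 16.88% of cells. *DCN* stood at 6514.9 CPM in cyAC. Among cells with *COL2A1* and no *COL1A1* reads the counts were again 4 higher and 1 lower.

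The comparison of cyFT with cyAC set fibrous repair tissue against normal cartilage within a library. *JUN* was 2.98-fold higher in cyFT (2.86 to 3.11) and *FOS* 2.44-fold (2.38 to 2.496). These were 2 of the 5 members kept, where 7.06% of 3270 kept genes were at least 2-fold higher. None was at least 2-fold lower, where 3.73% of kept genes were. *FOSL1*, *FOSB* and *EGR1* had log2 ratios of 0.77, 0.14 and −0.31, and *FOSL2*, which did not pass, −0.13. The median over all 6 listed genes was 0.45, beside 0.11 for all kept genes. The *FOS* difference did not hold among the cells with *COL2A1* reads and no *COL1A1* reads, 84 in cyFT and 276 in cyAC, where the log2 ratio was −0.42. Among these cells *JUN* had a log2 ratio of 1.32 and *FOSL1* of 1.60, so that the count stayed at 2 with *FOSL1* in the place of *FOS*. Without the 16 cells of cyFT and the 1 of cyAC that held at least 3 immune markers, *FOS* had a log2 ratio of 1.36 and *JUN* of 1.63. The 6 fibroblast markers summed to 51893 CPM in cyFT and 15864 CPM in cyAC, and the 5 macrophage markers to 446.4 and 24.1 CPM. The part of the fibroblast markers in the result was not tested beyond the collagen classes below.

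Both organoid samples were set against cyAC as the normal tissue. In post-transplant cyiPS-Cart, *FOS* was 7.62-fold (7.45 to 7.78), *JUN* 6.42-fold (6.19 to 6.67) and *EGR1* 2.19-fold (2.08 to 2.31) higher than in cyAC. *FOSL1* was at 0.0767 times the level of cyAC (0.0681 to 0.0861). Without the 1% of cells of each sample that were highest in the members, which left 316 of 320, the log2 ratio of *FOS* was 3.57 in place of 2.93. These 3 higher members and 1 lower member were of 5 kept, beside 10.8% and 17.8% of 3235 kept genes. *FOSL1* was kept through its level in cyAC alone. *FOSB* had a log2 ratio of −0.72, short of 2-fold, and *FOSL2*, not kept, of −0.49. The libraries differed here too, with mitochondrial reads of 1.97% and 3.6% and fibroblast markers of 78545 and 15864 CPM in post-transplant cyiPS-Cart and cyAC, and the part of these in the result was not tested. In pre-transplant cyiPS-Cart, *FOSB* was at 0.0340 times (0.0273 to 0.0419) and *EGR1* at 0.199 times (0.181 to 0.219) the level of cyAC. No member was at least 2-fold higher and these 2 of 5 were at least 2-fold lower, beside 15.7% and 11.3% of 3498 kept genes, and both were kept through their level in cyAC alone. *FOS*, *JUN* and *FOSL1* had log2 ratios of −0.28, −0.03 and −0.58, and *FOSL2*, not kept, of −1.31. The log2 ratio of *FOSB*, which was low in pre-transplant cyiPS-Cart, was −4.60, and −3.28 with 10 CPM in place of 1 CPM added. For *FOS* it was 0.21 without the 1% of cells highest in the members.

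**Figure D2:**
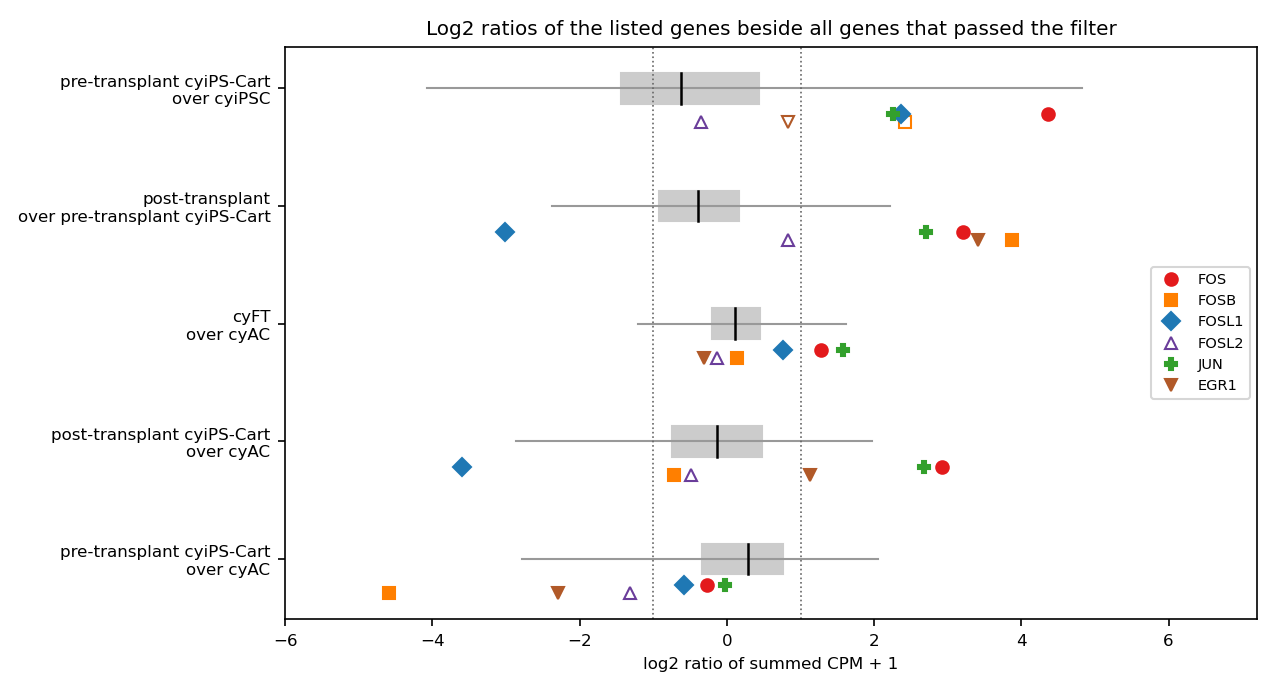
Log2 ratio of summed CPM + 1 for each listed gene (points, open where the gene did not pass the filter) in 5 comparisons, over the spread of all kept genes (box, middle 50% with the median; line, central 95%); dotted lines mark 2-fold. *FOS*, *JUN*, *EGR1* and *FOSB* lay between 2.71 and 3.88 in post-transplant over pre-transplant cyiPS-Cart, and *FOSL1* at −3.01.

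The share of cells with reads behaved differently from the summed level for some genes. *FOS* reads were found in 296 of 320 post-transplant cells (92.5%, exact binomial interval 89.1% to 95.1%), against 53.8% (48.1% to 59.3%) of pre-transplant cells, 35.6% (30.4% to 41.1%) of cyAC and 45.3% (39.8% to 50.9%) of cyFT. After each cell was thinned to 12191 reads these shares were 92.2%, 51.1%, 33.8% and 45.1%. The lowest *FOS* count above 0 in a cell was 15 reads in post-transplant cyiPS-Cart, 7 in pre-transplant cyiPS-Cart and 9 in cyAC and cyFT, where the authors had set low counts of highly expressed genes to 0, so these are shares of cells above such a minimum, and thinning after that step cannot show what unequal depth did to them. Pre-transplant cyiPS-Cart had a larger share of *FOS*-positive cells than cyAC at a lower summed level, and no order was read from these shares. Without the 1% of cells highest in the members, its summed *FOS* level was above that of cyAC, with a log2 ratio of 0.21 in place of −0.28. No cell type here is known to lack these genes, so no background share could be given.

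The typical post-transplant cell held much *FOS*. Its median per cell was 3913 CPM, against 98.8 CPM in pre-transplant cyiPS-Cart and 0 CPM in both cyAC and cyFT. In cyAC and cyFT the *FOS* reads left after the background step sat in few cells. The tenth of cells richest in *FOS* held 78.4% of its reads in cyAC and 76.9% in cyFT, against 38.5% after and 66.1% before transplantation of the organoids. The fewest cells that together held 50% of the *FOS* reads numbered 50 of 320 in post-transplant cyiPS-Cart, 18 in pre-transplant cyiPS-Cart, 9 in cyAC and 12 in cyFT. None of these cells held 3 immune markers.

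*JUN* reads were in 80.3% of pre-transplant and 79.1% of post-transplant cells, although the summed levels were 6.55-fold apart. The medians per cell were 114.1 CPM and 1035 CPM. Thinned, the shares were 60.5% and 79.1%. The lowest *JUN* count above 0 was 9 reads in post-transplant cells and 1 read elsewhere, so the thinned post-transplant share has the same limit. *EGR1* was read in 70% of post-transplant cells (64.7% to 74.97%) and in 30.6% of pre-transplant cells, 41.9% of cyAC and 39.4% of cyFT. Thinned, its shares were 57.8%, 16.9%, 33.8% and 27.8%. *FOSB* was read in 39.1% of post-transplant and 7.19% of pre-transplant cells, and in 43.8% of cyAC and 39.4% of cyFT. Thinned, the *FOSB* shares were 29.4%, 2.82%, 35.1% and 34.0%. *FOSL1* was read in 11.9% of post-transplant cells (8.54% to 15.9%) and in between 46.6% and 47.5% of the cells of the other 3 samples of the second matrix. At equal depth the *FOSL1* shares were 5.63% in post-transplant cyiPS-Cart, 32.0% in pre-transplant cyiPS-Cart, 38.6% in cyAC and 43.4% in cyFT.

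**Figure D3:**
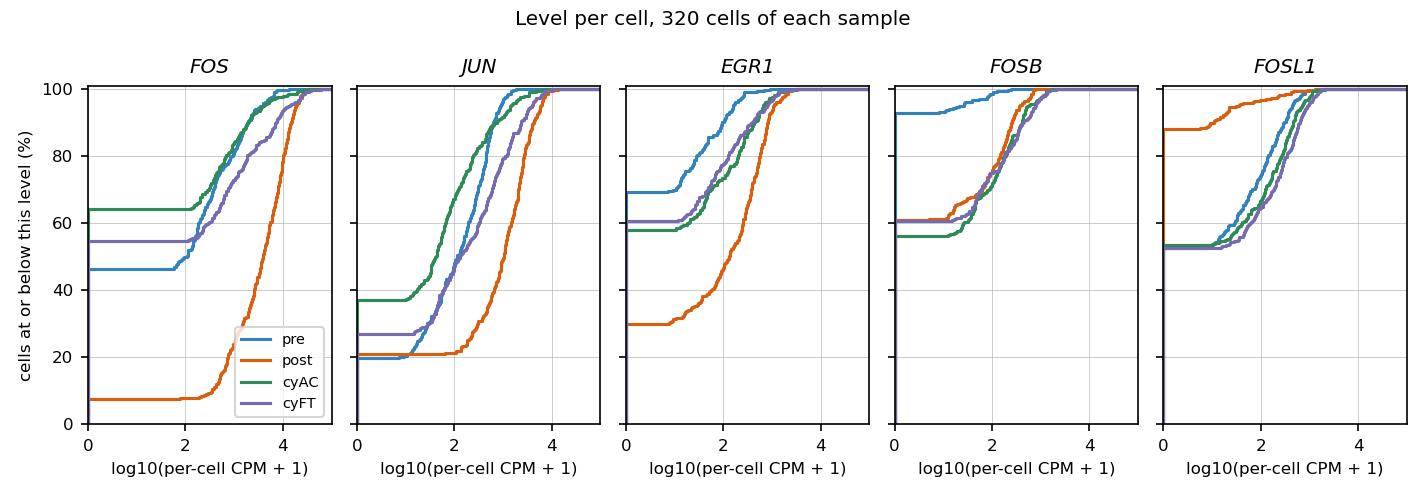
Cumulative share of the 320 cells of each sample (vertical axis, percent) at or below a level per cell (horizontal axis, log10 of CPM + 1); a curve further right means higher levels. For *FOS*, 7.5% of post-transplant cells lay at 0 against 64.4% of cyAC, and for *FOSL1* 88.1% of post-transplant cells lay at 0. A *FOS* value of 0 may be a low count that the authors' background step removed.

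Counted per cell at equal depth, at least 4 of the 6 genes were read in 29.1% of post-transplant cells, 19.1% of cyFT, 14.3% of cyAC and 4.08% of pre-transplant cells. None of the 6 was read in 4.38%, 14.6%, 12.0% and 11.6% of them. At this depth the median number of members in a cell was 3 in post-transplant cyiPS-Cart and 2 in each of the other 3 samples of the second matrix, and without thinning it was 3 in cyFT as well. Low counts of *FOS*, and of *JUN* in post-transplant cells, were absent before thinning, so these numbers have the limit given for the shares above.

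Some pairs of the genes also varied together from cell to cell, to a degree that differed between samples. Spearman's rho of per-cell CPM is given as a description across cells of 1 library, which share depth and are not independent replicates. The median over the 15 pairs was 0.13 in cyFT (10 pairs above 0), 0.11 in post-transplant cyiPS-Cart (15), 0.09 in cyAC (13) and 0.03 in pre-transplant cyiPS-Cart (10). In the first matrix it was 0.12 in cyiPSC (15) and 0.045 in the organoids (11). At equal depth the 4 medians of the second matrix were 0.06, 0.11, 0.07 and 0.05 in the same order, so the place of cyFT at the top did not hold. *FOS* and *JUN*, the partners of the classical AP-1 dimer, had a rho of 0.68 over 320 post-transplant cells, 0.56 in cyFT, 0.29 in pre-transplant cyiPS-Cart and 0.24 in cyAC. In the first matrix it was 0.26 over 3527 pre-transplant cells and 0.16 over 2500 cyiPSC. Thinned to equal depth, the values were 0.67, 0.51, 0.27 and 0.22 in the second matrix. Within cells with *COL2A1* and no *COL1A1* reads, rho of *FOS* and *JUN* was 0.65 in 265 post-transplant cells, 0.38 in 242 pre-transplant cells, 0.34 in 84 cells of cyFT and 0.17 in 276 cells of cyAC.

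In post-transplant cyiPS-Cart the pairs among the 4 immediate-early members had the highest values. *FOS* with *EGR1* had a rho of 0.43, *FOSB* with *EGR1* 0.42, *JUN* with *EGR1* 0.40, *FOSB* with *JUN* 0.39 and *FOS* with *FOSB* 0.39. The lowest of the 15 pairs, *FOS* with *FOSL1*, had 0.01 (−0.01 thinned). Over the cells with reads of both genes the values of the *FOSB* pairs were much lower, with 0.07 for *JUN* (120 cells), 0.13 for *FOS* (122 cells) and 0.15 for *EGR1* (114 cells), whereas *FOS* with *JUN* kept 0.55 (249 cells). In such cells *FOS* with *JUN* had 0.51 in cyFT (128 cells), 0.43 in cyAC (87 cells) and 0.33 in pre-transplant cyiPS-Cart (148 cells). The samples thus lay closer together for this pair than over all cells, with cyAC above pre-transplant cyiPS-Cart. A 0 may also be a count that the background step removed. In cyFT the pairs among the 4 immediate-early members ranged, over all cells, from 0.20 for *FOS* with *EGR1* to 0.56 for *FOS* with *JUN*. In cyAC these pairs lay between 0.09 and 0.24, a weak relation.

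*FOSL1* with *FOS* differed in sign between samples. In cyiPSC the rho was 0.13 (0.09 thinned), and both genes were read in 194 of 2500 cells, where the product of their shares would give 140.3. In pre-transplant cyiPS-Cart the rho of *FOSL1* with *FOS* was −0.30 over 320 cells and −0.31 over 3527 cells, and −0.24 and −0.31 after thinning. Both genes were read in 727 of the 3527 cells, and the product of their shares was 907. Within cells with *COL2A1* and no *COL1A1* reads the value was −0.34 in both matrices. With *JUN*, *FOSL1* had a rho of −0.16 in the 320 pre-transplant cells. In post-transplant cyiPS-Cart, where *FOSL1* was read in few cells, and in cyAC, its rho with *FOS* was 0.01 and −0.02. In cyFT it was −0.14 over all 320 cells and 0.12 over the 84 with *COL2A1* and no *COL1A1* reads, and *FOSL1* itself followed the reads per cell there with a rho of 0.40 (0.34 thinned).

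**Figure D4:**
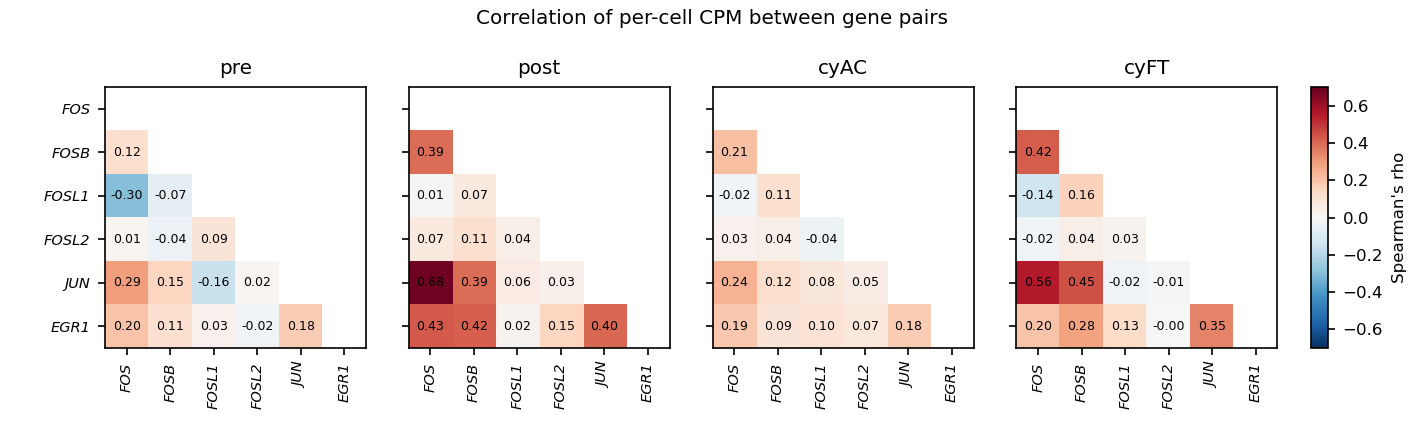
Spearman's rho of per-cell CPM for the 15 pairs of listed genes in each of the 4 samples of the second matrix, 320 cells each, with color from blue (below 0) to red (above 0). *FOS* with *JUN* is the darkest pair in post-transplant cyiPS-Cart (0.68) and cyFT (0.56), and *FOS* with *FOSL1* is below 0 in pre-transplant cyiPS-Cart (−0.30).

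The members were then compared between cells sorted by their collagen reads. *COL2A1* encodes the type II collagen of cartilage, and *COL1A1* encodes a chain of the type I collagen of bone and fibrous tissue. Among post-transplant cells, the 265 with *COL2A1* reads only held 6454 CPM of *FOS* and 1788 CPM of *JUN*. The 47 with reads of both collagens held 2830 and 751.1 CPM. *FOSB* was at 93.9 CPM in the former and 8.26 CPM in the latter, and *EGR1* at 351.0 and 133.7 CPM. Thus these 4 genes were higher in the cells with *COL2A1* reads only, at median depths of 80257 and 81026 reads. Only 7 post-transplant cells had *COL1A1* reads only, with 192.7 CPM of *FOS*, 70.7 CPM of *JUN* and no *EGR1* or *FOSB* read.

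Pre-transplant cyiPS-Cart showed the same order for *FOS*, at 752.8 CPM in 242 cells with *COL2A1* reads only and 239.3 CPM in 58 cells with both, and in the first matrix at 804.6 CPM in 2588 and 270.4 CPM in 674 cells. In the second matrix few cells carried this gap. *FOS* was read in 52.5% of the former and 55.2% of the latter, with medians of 87.6 and 70 CPM, and the 18 cells that held 50% of the *FOS* reads all had *COL2A1* reads only. In the first matrix the shares were 56.9% and 50.3% and the medians 172.9 and 51.4 CPM. *JUN* was at 277.2 CPM in the former and 144.5 CPM in the latter cells of the first matrix. *FOSL1* had the opposite order, at 71.5 and 102.2 CPM, and was read in 41.7% and 63.4% of these cells, at median depths of 56356 and 72111 reads. The 254 cells with *COL1A1* reads only held 537.4 CPM of *FOS*, 110.7 CPM of *JUN* and 65.5 CPM of *FOSL1*.

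In cyFT, *FOSL1* and *FOS* were divided between the classes. The 84 cells with *COL2A1* reads only held 504.4 CPM of *FOSL1* (483.8 to 525.6), with reads in 86.9% of them, and the 170 cells with *COL1A1* reads only held 90.6 CPM (81.8 to 99.97), with reads in 31.8%. The former were deeper, with a median of 47803 reads against 21830, but at equal depth *FOSL1* was read in 84.5% and 24.3%. *FOS* had 572.0 CPM in the cells with *COL2A1* reads only, 2860 CPM in those with *COL1A1* reads only and 3581 CPM in the 33 with both. Few cells made up the *FOS* level of the *COL1A1* class, whose median was 0 CPM and whose 90th percentile was 9328 CPM, whereas the *COL2A1* class had a median of 55.8 CPM and a 90th percentile of 825.6 CPM. Of the 12 cells that held 50% of the *FOS* reads of cyFT, 8 had *COL1A1* reads only, 3 had both and 1 had *COL2A1* reads only. All 20 cells that held 50% of its *FOSL1* reads had *COL2A1* reads only.

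cyAC had 276 cells with *COL2A1* reads only, and they held 766.7 CPM of *FOS*, 237.2 CPM of *JUN* and 165.5 CPM of *FOSL1*. Its 16 cells with *COL1A1* reads only had 911.2 CPM of *FOS* and 622.7 CPM of *JUN*. The *FOS* reads of these 16 were in 25% of them, against 37.3% of the cells with *COL2A1* reads only, and the median was 0 CPM in both classes. Low counts of the collagens were also subject to the authors' background step, so a class means reads left after it. The *FOS* medians and shares of the classes in every sample have the same limit.

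**Figure D5:**
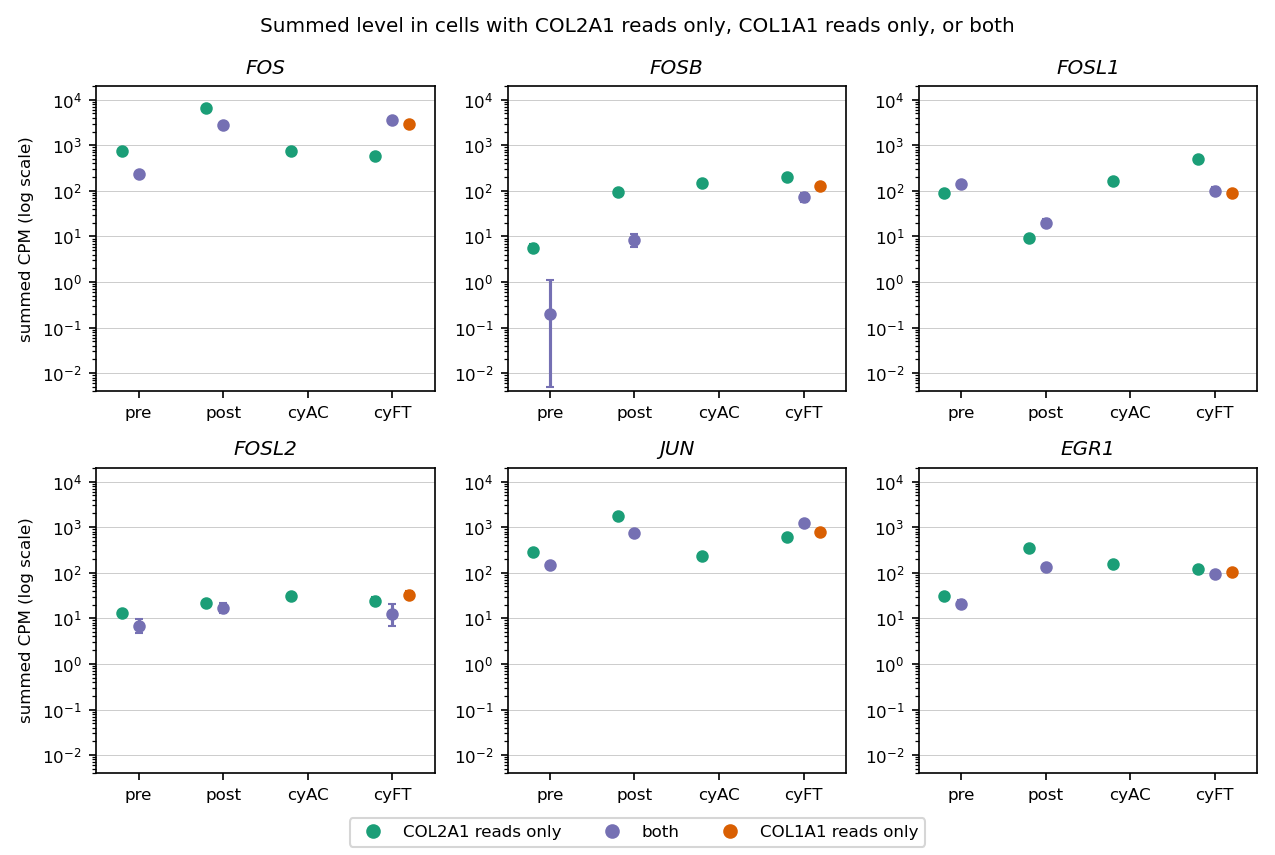
Summed CPM (log axis) of each listed gene in cells with *COL2A1* reads only, *COL1A1* reads only or both, for classes of at least 20 cells in the second matrix, with 95% exact Poisson intervals mostly smaller than the points; pre and post are pre-transplant and post-transplant cyiPS-Cart. *FOS* was 6454 CPM against 2830 CPM (*COL2A1* only against both) in post-transplant cyiPS-Cart, and in cyFT *FOSL1* was 504.4 CPM against 90.6 CPM (*COL2A1* only against *COL1A1* only).

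Other immediate-early genes were counted in the same way, and their counts are read against the shares of all kept genes. Of 38 in the list, 30 were in the matrices and 27 passed the filter for post-transplant over pre-transplant cyiPS-Cart. Of these 27, 14 were at least 2-fold higher and 2 at least 2-fold lower (8.16% and 22.1% of all kept genes), with a median log2 ratio of 1.01 beside −0.39 for all kept genes. Of these 16, 4 were under 50 CPM in 1 of the samples and so were kept through the other alone, *HES1* among them. *ID2*, an inhibitor of basic helix-loop-helix factors, stood at 1746 CPM against 81.5 CPM, and *HES1*, a repressor gene of the Notch pathway, at 87.2 against 4.09 CPM. *MYC* went the other way, at 64.8 against 161.8 CPM. For cyFT over cyAC, 10 of 26 were at least 2-fold higher and 2 lower (7.06% and 3.73% of all kept genes), with *PPP1R15A* at 476.8 against 119.7 CPM and the YAP target *CCN1* at 1548 against 3755 CPM. For post-transplant cyiPS-Cart over cyAC, 11 of 28 were higher and 3 lower (10.8% and 17.8%). For pre-transplant cyiPS-Cart over cyAC, 2 of 26 were higher and 10 lower (15.7% and 11.3%). For pre-transplant cyiPS-Cart over cyiPSC 16 of 25 were higher and 3 lower (18.4% and 38.5%), 15 of these 19 kept through 1 sample alone. Against cyAC that held for 2 of 14 in post-transplant cyiPS-Cart, 2 of 12 in pre-transplant cyiPS-Cart and none in cyFT.

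Genes known as AP-1 targets, 24 in the list and 23 in the matrices, are read against the same shares. Of the 12 kept for post-transplant over pre-transplant cyiPS-Cart, 2 were at least 2-fold higher and 5 at least 2-fold lower (8.16% and 22.1% of all kept genes). Their median log2 ratio was −0.54, beside −0.39 for all kept genes. *PLAUR*, the urokinase receptor gene, stood at 13.3 CPM after and 192.1 CPM before transplantation, and *HBEGF*, which encodes an EGF-receptor ligand, at 18.7 and 252.4 CPM. *CCND1*, the cyclin D1 gene, was at 180.1 and 85.4 CPM. Against cyAC, 3 of 12 were higher and 4 lower in post-transplant cyiPS-Cart (10.8% and 17.8%), and 5 and 4 of 12 in pre-transplant cyiPS-Cart (15.7% and 11.3%). For cyFT over cyAC, 6 of 12 were higher and 2 lower (7.06% and 3.73%). Among the higher were *SPP1* at 2981 against 463.7 CPM and *HMOX1* at 1577 against 281.8 CPM, and among the lower the collagenase-activating protease gene *MMP3* at 438.9 against 1442 CPM. For pre-transplant cyiPS-Cart over cyiPSC, 10 of 13 were higher and 2 lower (18.4% and 38.5%). Of the genes at least 2-fold apart, those under 50 CPM in 1 of the samples were 2 of 7 for post-transplant over pre-transplant cyiPS-Cart and 6 of 12 for pre-transplant cyiPS-Cart over cyiPSC. Against cyAC they were 3 of 7 in post-transplant cyiPS-Cart, 1 of 9 in pre-transplant cyiPS-Cart and 1 of 8 in cyFT.

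Of the other basic leucine zipper partners, 11 were kept for post-transplant over pre-transplant cyiPS-Cart, 1 of them at least 2-fold higher (*DDIT3*, a stress-induced factor gene, at 73.1 against 25.6 CPM) and 3 lower (8.16% and 22.1% of all kept genes), with a median log2 ratio of −0.22. For cyFT over cyAC, 3 of 10 were higher and none lower (7.06% and 3.73%), *DDIT3* at 216.4 against 64.3 CPM. Of the MAP kinase and serum response factor pathway, 9 genes were kept for post-transplant over pre-transplant cyiPS-Cart, 1 of them higher and 5 lower, beside the same 8.16% and 22.1%. *DUSP6*, which encodes a phosphatase of ERK and is itself induced by ERK signaling, stood at 120.0 CPM after and 6.62 CPM before transplantation, and *SRF* at 13.3 and 53.2 CPM. For cyFT over cyAC, none of 8 was at least 2-fold apart. Against cyAC, 1 partner gene of 11 was higher and 3 lower in post-transplant cyiPS-Cart, and 1 pathway gene of 6 higher and 3 lower (10.8% and 17.8% of all kept genes). In pre-transplant cyiPS-Cart these were 1 higher and 1 lower of 10 partner genes, and 1 higher and none lower of 9 pathway genes (15.7% and 11.3%). For pre-transplant cyiPS-Cart over cyiPSC, 2 of 11 partner genes were higher and none lower, and 3 of 10 pathway genes were higher and 3 lower (18.4% and 38.5%). Many of the genes that were at least 2-fold apart were kept through 1 sample alone, and the counts that include them are no support. For post-transplant over pre-transplant cyiPS-Cart, 3 of the 4 partner genes and 5 of the 6 pathway genes that were at least 2-fold apart were under 50 CPM in 1 of the samples. Against cyAC these were 4 of 4 and 2 of 4 in post-transplant cyiPS-Cart and 1 of 2 and 1 of 1 in pre-transplant cyiPS-Cart. For pre-transplant cyiPS-Cart over cyiPSC they were 2 of 2 and 4 of 6, and for cyFT over cyAC none of the 3 partner genes.

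Likeness to the members was measured as the rho, across cells, between the log2 level of another gene and the mean standardized log2 level of 5 members (all listed ones but *FOSL2*, which was too low). The mean of this rho over the 4 samples of the second matrix ranked 2902 genes. The first 5 were *SERTAD1* (mean rho 0.32), *GADD45B* (0.31), *ZFP36* (0.29), *BTG2* (0.28) and *CSRNP1* (0.28). Each was most like the members in post-transplant cyiPS-Cart or cyFT, with *SERTAD1* at 0.45 and 0.49 there and at 0.15 and 0.18 in pre-transplant cyiPS-Cart and cyAC. At equal depth, where 1696 genes could be ranked, *SERTAD1* and *GADD45B* stayed in the first places, followed by *KLF10* (0.27), *DUSP1* (0.26) and *ZFP36* (0.26), while *BTG2* was at rank 7 and *CSRNP1* at rank 8.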

How the data were processed

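The deposited values are read counts for each gene in each cell, in 2 matrices. Per the methods, the authors matched reads of cDNA to Ensembl transcripts (Macaca_fascicularis_6.0) with Bowtie2 (2.4.2 in the submitters' processing notes), kept cells above the knee-plot inflection, split pooled samples by their hashtags, zeroed counts that a distribution-based step took as background, removed cells rich in mitochondrial reads and, for the second matrix, drew 320 cells per sample. No molecular identifier step is described, so counts were taken as reads. Cells were assigned by name prefix. The 3 hashtag libraries were not used.

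Reads were summed per sample to CPM. Intervals are exact Poisson, Clopper-Pearson and conditional. Cells were thinned to 30967 (first matrix) or 12191 reads (second matrix) and shallower cells, 0 to 353 per sample, were left out. The ratio and thinning steps were tested on simulated data. Every listed member was named, with at most the 2 most extreme ratios in each direction per other list and comparison, and the 5 genes most like the members. Members and lists were chosen with earlier results of these data known. Alternatives covered thinning, cells, doublets (scanpy 1.11.5), scaling (edgeR 4.0.16), pseudocounts, filters and fold. Symbols of all 6 members were found in a RefSeq table of another assembly, used for names only.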

Additional observations from a re-analysis of the deposited data

How the results depend on the processing

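Of 138 recomputed counts of members at least 2-fold higher or lower, 137 stayed within 1.5 times the reported count. The exception was the count of members lower in post-transplant cyiPS-Cart than in cyAC, which was 2 in place of 1 at a threshold of 1.5-fold, *FOSB* being added by the construction of that threshold. Of 354 recomputed log2 ratios, 210 stayed within the counting interval of the reported value, 143 moved beyond it and 1 reversed, and 344 kept their sign. *FOS* in cyFT over cyAC reversed to −0.42 among cells with *COL2A1* and no *COL1A1* reads, an alternative chosen after seeing the data, as was leaving out cells with immune markers; the cause was not tested. *FOS* in post-transplant cyiPS-Cart over cyAC went from 2.93 to 3.57 without the 1% of cells highest in the members. The other 9 sign changes were of values short of 2-fold, 5 of them *JUN* in pre-transplant cyiPS-Cart over cyAC, which ranged from −0.22 to 0.26. *FOSL1* in post-transplant over pre-transplant cyiPS-Cart ranged from −3.20 to −2.34 and *FOSB* from 2.62 to 4.16. edgeR's TMM factors moved the median log2 ratio of all kept genes from −0.63 to 0.25 for pre-transplant cyiPS-Cart over cyiPSC and from −0.39 to −0.12 for post-transplant over pre-transplant cyiPS-Cart, and the counts of members were unchanged. Scrublet marked 0.232% of the cells of the first matrix and was not taken to have worked there, so that alternative was not run for it. Promoter motifs were not searched. No paired analysis was possible because each condition was 1 sample.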

Other observations

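Heat shock genes encode chaperones and are also induced by stress. For post-transplant over pre-transplant cyiPS-Cart, none of 8 kept genes was at least 2-fold higher and 3 were at least 2-fold lower, where 8.16% and 22.1% of all kept genes were, with a median log2 ratio of −0.69 beside −0.39 for all kept genes. *HSPA5*, the chaperone gene of the endoplasmic reticulum, stood at 449.6 CPM after and 2475 CPM before transplantation, and *DNAJA1* at 60.5 and 266.4 CPM. For cyFT over cyAC, 2 of 9 were at least 2-fold higher, *HSPA5* at 4153 against 886.2 CPM and *DNAJB1* at 98.9 against 41.3 CPM, and none was lower, beside 7.06% and 3.73%. For post-transplant cyiPS-Cart over cyAC, none of 8 was higher and 4 were lower (10.8% and 17.8% of all kept genes). For pre-transplant cyiPS-Cart over cyAC 1 of 7 was higher and 1 lower (15.7% and 11.3%), and for pre-transplant cyiPS-Cart over cyiPSC 4 of 9 were higher and 1 lower (18.4% and 38.5%). Of these last 5, *HSPB8*, *DNAJB4* and *BAG3* were under 50 CPM in cyiPSC and kept through pre-transplant cyiPS-Cart alone, as was *DNAJB1* through cyFT and 1 of the 4 lower than cyAC after transplantation, *HSPB8*, through cyAC, so these counts are no support. At least 3 T cell markers were read in 31.5% of cyiPSC, where their summed level was 33.7 CPM, and in at most 4.06% of any other sample. The summed level of 5 endothelial markers was at most 12.9 CPM in every sample.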
